A study of Mus musculus with 4 samples.

Results

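The urea cycle and the exchange of citrulline and arginine were followed through 9 listed genes, Cps1, Otc, Ass1, Asl, Arg1, Arg2, Oat, Aldh18a1 and Gatm, in cells sorted from mouse small intestine. A gene was measured where an array feature carried exactly 1 gene symbol, and of several such features the one with the highest mean over the 4 arrays would be taken. This gave 8 of the 9 listed genes, each with 1 feature, out of 30710 genes. Ass1, which joins citrulline to aspartate, has no value here because its only feature is annotated to 2 symbols, Ass1 and Gm5424.

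RNA of 4 groups was hybridised to Clariom D whole-transcript arrays, 1 array a group. All groups came from 8 week-old mice that carry the Lgr5GFP-CreERT2 allele, in which Lgr5 regulatory sequence drives GFP and a tamoxifen-dependent Cre. The groups were wild-type GFP-negative cells, labelled non-ISC, wild-type GFP-positive intestinal stem cells (ISC), GFP-positive stem cells with mutated LncGata6, a long noncoding RNA, and GFP-positive stem cells homozygous for loss of Ehf, an epithelial ETS transcription factor. The number of mice behind each array is not given in the sources used here, and the collection protocol shared by all samples names sorting of ILCreg cells, an innate lymphoid population, so the gate is uncertain. By their labels, the comparisons set stem cells against other cells and each mutant against wild-type stem cells. Marker genes, given below, bear out these labels only in part. A difference between arrays is therefore not read as a trait of stem cells. With 1 array a group there is no replicate check of any difference, no test was possible, and fewer cells of a type cannot be told apart from less RNA per cell.

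The urea cycle turns ammonia into urea in liver. Carbamoyl phosphate synthetase (Cps1) and ornithine transcarbamylase (Otc) make citrulline in mitochondria, argininosuccinate synthase (Ass1) and lyase (Asl) turn citrulline into arginine in the cytosol, and arginase splits arginine into urea and ornithine. The small intestine runs a shortened form. Enterocytes make citrulline from glutamine, glutamate and proline by way of pyrroline-5-carboxylate, with pyrroline-5-carboxylate synthase (Aldh18a1) and ornithine aminotransferase (Oat) supplying ornithine, and release it for the kidney, which makes arginine from it. Kidney tubules also hold Gatm, the first enzyme of creatine synthesis, which uses arginine.

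RefSeq promoter windows of build GRCm38.p6 were present for Otc, Oat, Aldh18a1 and Gatm among the measured genes. The first 3 of these genes were called lower on the Ehf-/- array than on the wild-type ISC array and Gatm was called higher. A link between the windows and these differences was not tested, and no motif for Ehf itself was searched. Each line gives the 250 bases before the transcript start, 5′ to 3′ on the gene's strand, and capitals mark a match to the CDX motif TTTATG or its reverse complement.
Otc, chrX:10252055-10252304, plus strand: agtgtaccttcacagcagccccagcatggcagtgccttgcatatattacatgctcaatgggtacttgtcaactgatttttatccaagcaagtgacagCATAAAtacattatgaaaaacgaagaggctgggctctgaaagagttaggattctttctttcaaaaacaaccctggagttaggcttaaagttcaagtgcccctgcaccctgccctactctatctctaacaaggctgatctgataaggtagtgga
Oat, chr7:132576399-132576648, minus strand: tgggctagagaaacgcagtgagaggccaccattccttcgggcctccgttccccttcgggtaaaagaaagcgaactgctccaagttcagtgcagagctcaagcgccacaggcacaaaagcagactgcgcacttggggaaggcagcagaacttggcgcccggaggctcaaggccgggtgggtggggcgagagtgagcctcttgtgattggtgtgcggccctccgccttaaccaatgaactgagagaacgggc
Aldh18a1, chr19:40588464-40588713, minus strand: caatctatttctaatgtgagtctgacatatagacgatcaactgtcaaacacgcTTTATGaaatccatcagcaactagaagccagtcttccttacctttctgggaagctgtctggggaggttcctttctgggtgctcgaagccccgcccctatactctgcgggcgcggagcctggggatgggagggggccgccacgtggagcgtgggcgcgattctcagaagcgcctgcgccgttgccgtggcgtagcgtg
Gatm, chr2:122611278-122611527, minus strand: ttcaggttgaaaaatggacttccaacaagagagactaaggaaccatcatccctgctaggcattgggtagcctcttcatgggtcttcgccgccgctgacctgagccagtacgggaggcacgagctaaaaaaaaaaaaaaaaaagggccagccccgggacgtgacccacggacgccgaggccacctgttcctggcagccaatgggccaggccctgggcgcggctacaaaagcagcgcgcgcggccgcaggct
The windows were searched on both strands for HNF4 as CAAAGTCC, for HNF1 as GTTAAT, for CDX as TTTATG, for GATA as AGATAA, for C/EBP as TTGCGCAA and for the TATA box as TATAAA. The matches found were 1 CDX match in the Otc window, 148 to 153 bases before the start on the opposite strand, and 1 CDX match in the Aldh18a1 window, 192 to 197 bases before the start on the gene's strand. Of all 32851 RefSeq windows of the same length, 10.8% hold the CDX letters, against 1.2% for HNF4, 6.43% for HNF1, 9.99% for GATA, 0.164% for C/EBP and 12.4% for TATA. No 2 of the matches overlap. The Otc window had a GC content of 43.6%, below the quartile of all windows (45.2%), while Oat, Gatm and Aldh18a1 had 60.0%, 59.2% and 57.2% against a median of 52.4%.

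Values are the authors' log2 values per array feature, and a difference of 1 is 2-fold. A difference was called when it was at least 1 and the brighter value reached the 75th percentile of genes on its array (5.26 on the GFP-negative, 4.97 on the wild-type ISC, 4.93 on the LncGata6 mutant and 4.60 on the Ehf-/- array). The 95th percentile of 5222 negative control features served as a background limit, at 5.16, 5.62, 5.31 and 5.19 on those arrays. A dimmer value under its limit was replaced by it and the fold is then given as "at least". The limit lies above the 75th percentile on the 3 stem arrays, so a call there can rest on values near background. A gene dim on both arrays cannot be called. The shares of all genes given below count such genes and so understate the share among bright genes. Of the 8 measured genes 7, 5, 5 and 3 were above background on those arrays, against 8123, 5072, 6166 and 5359 of 30710 genes.

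The labels were only partly borne out, by Lgr5 on the wild-type arrays, and neither mutation could be checked. Ehf was above background on the wild-type ISC array alone, at 6.99, and read 3.03 on the Ehf-/- array, 5.09 on the LncGata6 mutant array and 3.75 on the GFP-negative array. On the Ehf-/- array 0 of 12 general epithelial genes were above background, so a low value of Ehf there does not check the knockout. Lgr5, the gene behind the GFP sort, was above background on the wild-type ISC array alone, at 9.41, and read 2.79 to 3.03 on the other arrays, both GFP-positive mutants included. LncGata6, listed as Gata6os, was under the limit on every array (3.14 to 4.92). Gata6 was above background on the wild-type ISC (7.21) and LncGata6 mutant (7.62) arrays and under it on the GFP-negative (5.08) and Ehf-/- (3.17) arrays. The features' places relative to the mutated parts are not known here. Arrays are therefore named by their labels.

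Marker lists of cell types and tissues differed widely between the arrays. On the GFP-negative array 14 of 14 hepatocyte genes, such as albumin (Alb), and 12 of 12 kidney tubule genes, such as Umod, stood above background, with medians of 11.10 and 8.78, whereas 0 of 14 and 0 of 12 did so on any stem array (medians 1.97 to 3.23). The summed hepatocyte level was 15.00 (log2 of the summed linear values) on the GFP-negative array and 5.91 to 6.54 on the stem arrays, and the summed kidney level 13.50 against 6.42 to 6.77. On the Ehf-/- array 0 of 12 general epithelial genes (Epcam, Cdh1, Krt8 and others) and 0 of 12 enterocyte genes were above background, while 11 of 11 neutrophil genes and 10 of 11 macrophage genes were. On the LncGata6 mutant array all 12 enterocyte genes were above background with a median of 10.51, beside 6.92 on the wild-type ISC array and 7.20 on the GFP-negative array.

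**Figure D1:**
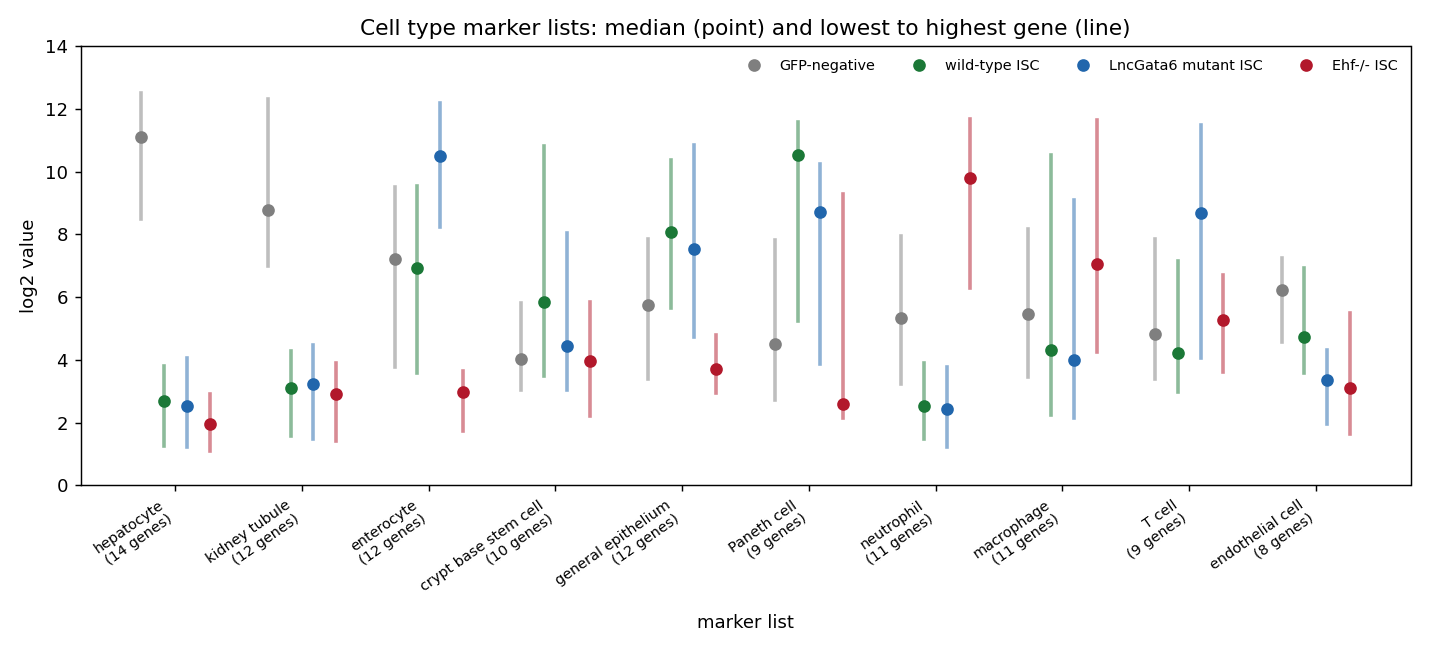
Log2 values (vertical axis) of 10 cell type marker lists (horizontal axis) on the 4 arrays; points are medians over the genes of a list and lines run from its lowest to its highest gene. The hepatocyte and kidney lists are high on the GFP-negative array only (medians 11.10 and 8.78), the enterocyte list is highest on the LncGata6 mutant array (10.51) and the neutrophil list on the Ehf-/- array (9.80).

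Cps1, the ammonia-fixing step, was bright on both wild-type arrays, lower on the LncGata6 mutant array and at background on the Ehf-/- array. It read 10.40 on the GFP-negative array, 9.88 on the wild-type ISC array, 7.87 in the LncGata6 mutant and 2.39 on the Ehf-/- array. The wild-type ISC array differed from the GFP-negative array by -0.52, which was not called. The LncGata6 mutant array was 4.03-fold lower than the wild-type ISC array, with both values above background, and the Ehf-/- array at least 25.8-fold lower.

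Otc, the citrulline-forming step that follows Cps1, was alike on 3 arrays and at background on the Ehf-/- array. It read 7.68 on the GFP-negative array, 8.21 on the wild-type ISC array, 7.73 in the LncGata6 mutant and 2.11 on the Ehf-/- array. The first 3 values lay within 0.52 of each other and no difference among them was called. The Ehf-/- array was at least 8.08-fold lower than the wild-type ISC array. On the LncGata6 mutant array, then, Cps1 was called lower (-2.01) and Otc was not (-0.47), but whether the 2 genes differ in their response was not tested.

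Oat, which converts pyrroline-5-carboxylate to ornithine and back, was the only one of the 8 genes above the background limit on all 4 arrays. It read 8.57 on the GFP-negative array, 9.39 on the wild-type ISC array, 7.95 in the LncGata6 mutant and 5.81 on the Ehf-/- array. The wild-type ISC array was highest. Oat was 2.72-fold lower on the LncGata6 mutant array and 12.0-fold lower on the Ehf-/- array than on the wild-type ISC array, and 0.83 (log2) higher on the wild-type ISC than on the GFP-negative array, which was not called.

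Aldh18a1 makes pyrroline-5-carboxylate from glutamate, for proline and ornithine alike. It read 4.46 on the GFP-negative array, under the limit, 7.01 on the wild-type ISC array, 5.94 in the LncGata6 mutant and 5.59 on the Ehf-/- array. It was the one measured gene whose lowest value was on the GFP-negative array. The wild-type ISC array was at least 3.60-fold higher than the GFP-negative array, and the LncGata6 mutant and Ehf-/- arrays were 2.10-fold and 2.66-fold lower than the wild-type ISC array. The difference on the LncGata6 mutant array (-1.07) lay close to the limit of 1 and was -0.97 after cyclic loess, under it.

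**Figure D2:**
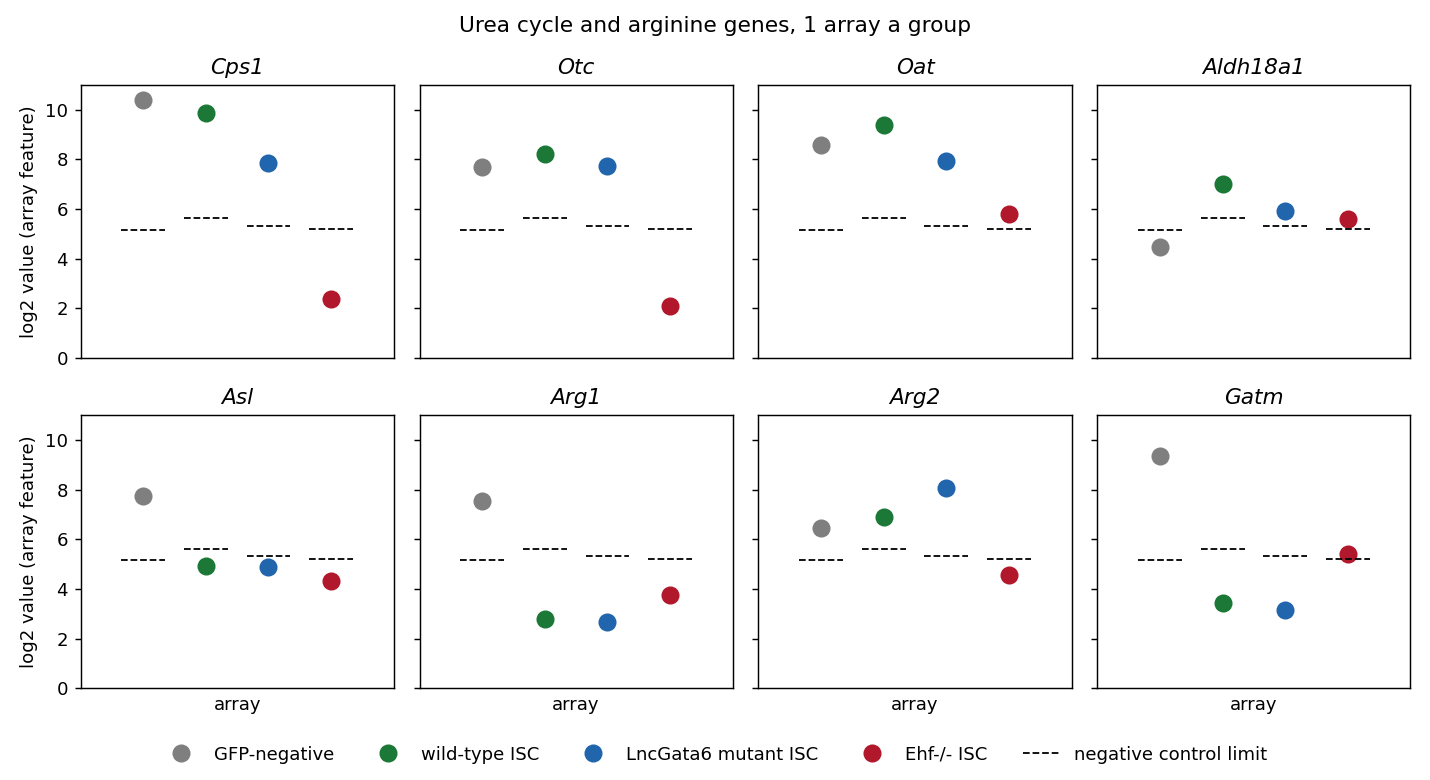
Log2 value of each measured gene (vertical axis) on the GFP-negative, wild-type ISC, LncGata6 mutant and Ehf-/- arrays, left to right, 1 point an array; dashed lines mark the background limit of each array. Cps1 and Otc lie above the limit on 3 arrays and at 2.39 and 2.11 on the Ehf-/- array, while Asl and Arg1 lie above it on the GFP-negative array only.

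Asl, the arginine-releasing lyase, was above background on the GFP-negative array alone. It read 7.75 there, 4.93 on the wild-type ISC array, 4.88 in the LncGata6 mutant and 4.33 on the Ehf-/- array. The GFP-negative array was at least 4.37-fold, 5.43-fold and 5.90-fold above these 3, in that order. Among the stem arrays all values were under the limits, so no fold is given.

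Arg1, the cytosolic arginase of hepatocytes and some macrophages, had the same one-sided pattern. It read 7.54 on the GFP-negative array, 2.80 on the wild-type ISC array, 2.67 in the LncGata6 mutant and 3.77 on the Ehf-/- array. The GFP-negative array was at least 3.79-fold above the wild-type ISC array. On the Ehf-/- array, where 10 of 11 macrophage genes and 11 of 11 neutrophil genes were above background, Arg1 was not.

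Arg2, the mitochondrial arginase, was highest on the LncGata6 mutant array. It read 6.44 on the GFP-negative array, 6.90 on the wild-type ISC array, 8.05 in the LncGata6 mutant and 4.55 on the Ehf-/- array, the last under the limit. The LncGata6 mutant array was 2.21-fold above the wild-type ISC array and 3.05-fold above the GFP-negative array. The Ehf-/- array was at least 3.28-fold below the wild-type ISC array. Arg2 was called higher on one mutant array and lower on the other, and the arrays on which the 2 arginases peaked were different ones.

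Gatm, the amidinotransferase that starts creatine synthesis, was bright on the GFP-negative array and just above background on the Ehf-/- array. It read 9.37 on the GFP-negative array, 3.42 on the wild-type ISC array, 3.16 in the LncGata6 mutant and 5.42 on the Ehf-/- array. The GFP-negative array was at least 13.4-fold above the wild-type ISC array and 15.4-fold above the Ehf-/- array. The Ehf-/- array was called higher than the wild-type ISC array by 2.00, but the knockout value lies under the wild-type array's background limit of 5.62, so no fold is given.

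Between the wild-type arrays, which differed in the hepatocyte and kidney markers, 4 of the 8 genes were called. Asl, Arg1 and Gatm were called lower on the wild-type ISC array than on the GFP-negative array, that is 3 of 8 against 7.07% of all genes, and these 3 were under the limit on the wild-type ISC and LncGata6 mutant arrays, where every hepatocyte and kidney marker was under it too. Gatm was above the limit on the Ehf-/- array as well (5.42), where 0 of those markers were. Aldh18a1 was called higher, 1 of 8 against 3.83% of all genes. The median difference of the 8 genes was -0.03, beside -0.11 for all genes. Cps1, Otc, Arg2 and Oat were not called and were bright on the wild-type ISC array, where the hepatocyte and kidney lists had 0 genes above background. On that array 8 of 9 Paneth cell genes (median 10.53) and 8 of 12 enterocyte genes (median 6.92) were above background. Which cells carried the RNA of these 4 genes there was not tested. Cps1 and Otc are also hepatocyte genes, and how much of their GFP-negative level came with the hepatocyte RNA was not tested.

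On the LncGata6 mutant array, the measured genes did not move together against the wild-type ISC array. Cps1, Oat and Aldh18a1 were called lower, 3 of 8 against 3.01% of all genes, and Arg2 higher, 1 of 8 against 2.81%. Otc was not called (-0.47). The call of Aldh18a1 ended after cyclic loess, and with a limit of 2 only Cps1 was still called. The median difference was -0.37, beside -0.06 for all genes. Over the same comparison 12 of 12 enterocyte genes were called higher (median 4.02), 6 of 10 crypt base stem cell genes lower (median -1.17), 9 of 9 Paneth cell genes lower and 8 of 9 T cell genes higher, while general epithelial genes had a median of -0.38 with 1 higher and 3 lower of 12. The part of these cell types in the gene differences was not tested.

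On the Ehf-/- array, 5 of the 8 genes, Cps1, Otc, Arg2, Oat and Aldh18a1, were called lower than on the wild-type ISC array, against 5.28% of all genes, and Gatm higher, 1 of 8 against 2.59%. The median difference was -1.88, beside -0.20 for all genes. General epithelial genes were lower in 12 of 12 cases with a median of -4.65. The Ehf-/- values of all 12, and of Cps1, Otc and Arg2, were under background, so the sizes of these differences cannot be ranked, while Oat (-3.59) and Aldh18a1 (-1.41) were measured above background on both arrays. Neutrophil genes were higher in 11 of 11 cases (median 7.16) and macrophage genes in 10 of 11 (median 2.57). Loss of Ehf and loss of epithelial RNA cannot be told apart on this array.

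**Figure D3:**
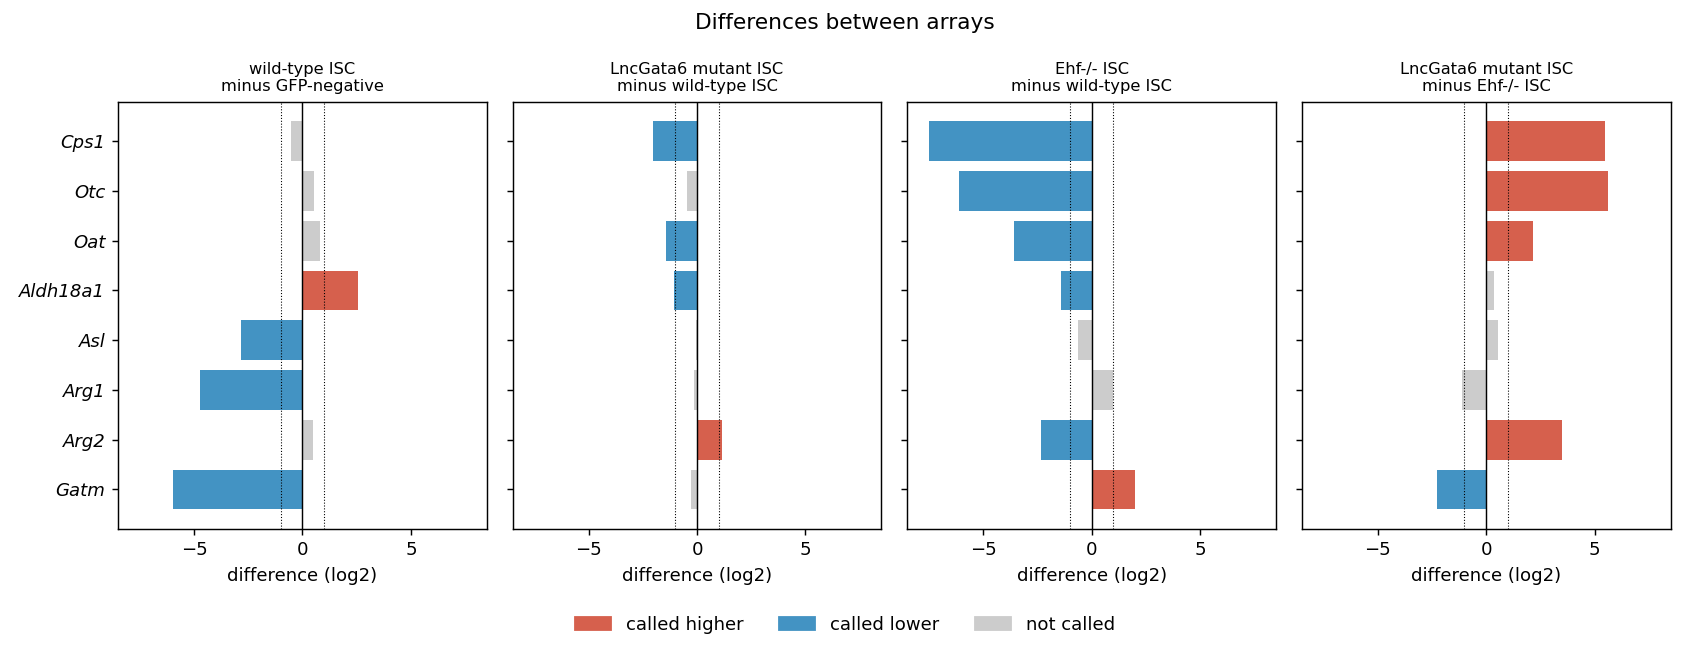
Difference of log2 values between 2 arrays (horizontal axis) for each measured gene in 4 comparisons; dotted lines mark the limit of 1 and colours the call. Against the wild-type ISC array, Arg2 is higher by 1.14 on the LncGata6 mutant array and lower by 2.35 on the Ehf-/- array, and Cps1 is called lower on both; a bar that rests on a value under background, as for Cps1, Otc and Arg2 on the Ehf-/- array, shows the difference as measured and its length cannot be ranked.

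Between the mutants, 4 of the 8 genes were called higher in the LncGata6 mutant than in the Ehf-/- cells, Cps1 and the citrulline-forming Otc among them. Cps1 was at least 6.41-fold higher, Otc at least 5.82-fold, Arg2 at least 7.24-fold and Oat 4.42-fold, 4 of 8 against 6.16% of all genes. Gatm was at least 1.08-fold lower (-2.27), 1 of 8 against 3.47%. Aldh18a1 differed by 0.34 and was not called. All 12 enterocyte genes were called higher there (median 7.27).

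The GFP-negative array was also set against both mutant arrays. Against the LncGata6 mutant array, Cps1, Asl, Arg1 and Gatm were called lower in the mutant, 4 of 8 against 6.86% of all genes, and Arg2 and Aldh18a1 higher, 2 of 8 against 3.66%. Cps1 was 5.79-fold lower there, with both values above background, while Otc differed by 0.05. Against the Ehf-/- array, 7 of 8 genes were called lower in the knockout, against 9.83% of all genes, and only Aldh18a1 higher, 1 of 8 against 3.01%. Cps1 was at least 37.1-fold lower and Oat 6.77-fold lower. These comparisons share arrays with those above and are not independent of them.

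Carriers of the urea cycle amino acids were read next, 18 genes with 18 measured. Against the wild-type ISC array, 5 were called higher and 2 lower in the LncGata6 mutant (median 0.09), beside 2.81% and 3.01% of all genes. The apical neutral amino acid carrier Slc6a19 was at least 8.33-fold higher, and Slc3a1, the heavy chain of the cystine and dibasic amino acid carrier, was 8.27-fold higher, with its light chain Slc7a9 at least 2.56-fold. Slc7a7, a light chain of basolateral arginine export, was at least 4.70-fold higher, and the mitochondrial ornithine and citrulline exchanger Slc25a15 was 2.68-fold higher, so the exchanger and Cps1 were called in opposite directions. The 2 lower carriers were Slc7a1, a cationic amino acid importer (at least 2.48-fold), and the glutamine carrier Slc38a2 (2.83-fold).

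The same carriers were lower or not called on the Ehf-/- array, with 4 of 18 called lower and 0 higher than on the wild-type ISC array (median -0.51), beside 5.28% and 2.59% of all genes. Slc3a1 was at least 2.59-fold lower, Slc7a8 at least 3.76-fold, Slc25a15 at least 2.29-fold and Slc7a1 2.36-fold. After quantile normalization and cyclic loess Slc7a1 was not called (-0.87 and -0.88) and the aspartate and glutamate exchanger Slc25a12 was called higher (1.33 and 1.32), as it was after median centring (1.16), against 0.97 and no call before. The Ehf-/- value of Slc25a12 before scaling (5.52) lies under the wild-type ISC array's background limit of 5.62, so no fold is given. Between the wild-type arrays, 9 of 18 were lower on the stem array (median -0.95), beside 7.07% of all genes. Among them were Slc3a1 (9.97-fold), Slc7a7 (at least 4.02-fold), the related exchanger Slc25a13 (at least 3.75-fold), Slc6a19 (at least 3.33-fold) and Slc7a2 (at least 2.04-fold). Liver expresses Slc7a2 and Slc25a13, and kidney tubules Slc6a19 and Slc3a1. Slc6a19 and Slc3a1 also read 8.68 and 9.61 on the LncGata6 mutant array, where 0 of 12 kidney tubule genes were above background. The part of liver or kidney RNA in these differences was not tested. Slc7a1 was the 1 carrier of 18 called higher on the wild-type ISC than on the GFP-negative array, at least 2.76-fold, beside 3.83% of all genes. Slc38a2 joined it after median centring (1.07) and quantile normalization (1.24).

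Genes of glutamine, glutamate and ammonia had 6 of 10 listed genes measured. Against the GFP-negative array, the wild-type ISC array was higher in 1 gene and lower in 3, beside 3.83% and 7.07% of all genes. The higher gene was asparagine synthetase (Asns, at least 2.26-fold). The lower genes were the mitochondrial aspartate aminotransferase Got2 (4.82-fold), Gpt2 (at least 1.58-fold) and Gpt (-1.16, but -0.87 and not called after quantile normalization). As for the carriers, the part of liver or kidney RNA in differences between the wild-type arrays was not tested, here or in the lists that follow. On the LncGata6 mutant array, alanine aminotransferase Gpt was at least 1.11-fold higher than on the wild-type ISC array and Asns at least 2.04-fold lower. On the Ehf-/- array the 1 called gene of 6 was Got1, the cytosolic aspartate aminotransferase, 2.25-fold lower, beside 5.28% of all genes. The Got1 call ended under median centring (-0.98), quantile normalization (-0.81) and cyclic loess (-0.83). Nags, whose product activates Cps1, was under the limit on every array, at 3.49 to 4.72, and was called in 0 comparisons.

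Proline genes had 5 of 7 listed genes measured. Of these, 4 were lower on the wild-type ISC array than on the GFP-negative array (median -2.31), beside 7.07% of all genes (median -0.11). The breakdown enzymes Aldh4a1 and Prodh were among them (at least 4.03-fold and 2.94-fold), with Prodh2 (at least 1.80-fold) and the dipeptidase Pepd (at least 3.30-fold). On the LncGata6 mutant array Pepd was at least 5.43-fold and Aldh4a1 at least 1.16-fold higher than on the wild-type ISC array. On the Ehf-/- array 0 of 5 were called against the wild-type ISC array, beside 2.59% of all genes higher and 5.28% lower.

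Ornithine decarboxylase (Odc1), the first step of polyamine synthesis, was 5.04-fold lower on the wild-type ISC array than on the GFP-negative array (7.57 against 9.90). Of the 8 measured polyamine genes of 12 listed only Agmat (at least 1.42-fold lower) was also called, so 2 of 8 beside 7.07% of all genes. The Agmat call ended after quantile normalization (-0.91). Odc1 read 7.54 and 7.69 on the LncGata6 mutant and Ehf-/- arrays, so the stem arrays lay within 0.15 of each other. On either mutant array against the wild-type ISC array 0 of 8 polyamine genes were called. Shares of all genes were 2.81% higher and 3.01% lower for the LncGata6 mutant, and 2.59% and 5.28% for the Ehf-/- array. The spermine oxidase Smox passed on the Ehf-/- array after quantile normalization (1.14) and cyclic loess (1.12). Its Ehf-/- value before scaling (5.38) lies under the wild-type ISC array's background limit of 5.62, so no fold is given.

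The nitric oxide list had 6 of 6 genes measured. Inducible nitric oxide synthase (Nos2) read 3.07 on the GFP-negative array, 5.37 on the wild-type ISC array, 6.01 in the LncGata6 mutant and 3.09 on the Ehf-/- array, and passed background on the LncGata6 mutant array alone. It was called higher on the wild-type ISC than the GFP-negative array and lower on the Ehf-/- array than on the wild-type ISC array, with both values under the limits in each case. Ddah1, which breaks down methylated arginine, was at least 6.41-fold lower on the wild-type ISC than on the GFP-negative array, and Agxt2, an aminotransferase of liver and kidney, at least 3.22-fold.

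The creatine carrier was highest on the LncGata6 mutant array, as the enterocyte markers were, and Gatm on the GFP-negative array. The creatine carrier Slc6a8 read 7.71 on the GFP-negative array, 5.94 on the wild-type ISC array, 8.92 in the LncGata6 mutant and 4.02 on the Ehf-/- array. The LncGata6 mutant array was 7.88-fold above the wild-type ISC array in Slc6a8 and 2.02-fold in the mitochondrial creatine kinase Ckmt1, 2 of 6 genes beside 2.81% of all genes. The Ehf-/- array was lower in both, by at least 1.68-fold for Slc6a8 and at least 3.24-fold for Ckmt1, beside 5.28% of all genes. The wild-type ISC array was 3.40-fold below the GFP-negative array in Slc6a8 and lower in Gamt, the second enzyme of creatine synthesis, by a difference of -1.28, which was no longer called after quantile normalization. Ckmt1 differed by 0.97 there, not called, but was called higher after median centring (1.09), quantile normalization (1.28) and cyclic loess (1.05).

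Over all 6 lists, 49 genes in all, 10 were called higher and 3 called lower in the LncGata6 mutant, 0 higher and 8 lower in the Ehf-/- cells, both against the wild-type ISC array. Over all genes the shares were 2.81% and 3.01% for the LncGata6 mutant, so 3 of 49 lower is near that level, and 2.59% and 5.28% for the Ehf-/- cells. The wild-type ISC array was higher in 3 and lower in 22 against the GFP-negative array, beside 3.83% and 7.07%. The hepatocyte and kidney tubule markers were above background on the GFP-negative array only. The part of liver or kidney RNA in the 22 lower genes was not tested. For the Ehf-/- cells the counts were 1 higher and 7 lower after median centring, and 2 and 6 after quantile normalization and after cyclic loess. Between the wild-type arrays they were 5 and 22, 5 and 18, and 4 and 22 under these scalings, in the same order, and cyclic loess gave 11 and 3 for the LncGata6 mutant. The median differences were 0.05, -0.38 and -0.67. The first 2 comparisons share the wild-type ISC array.

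**Figure D4:**
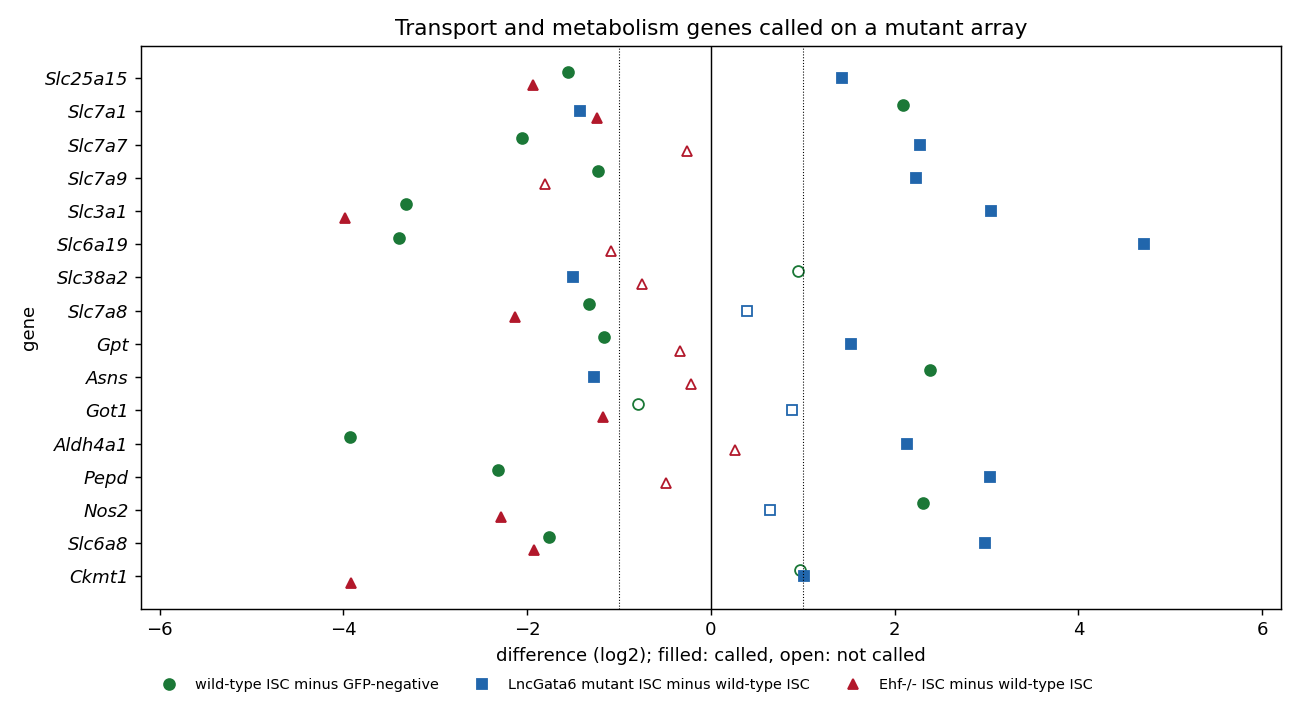
Difference of log2 values (horizontal axis) of the 16 transport and metabolism genes called on a mutant array against the wild-type ISC array (vertical axis); symbols mark the comparison, filled symbols are called and dotted lines mark the limit of 1. Slc3a1 and Slc6a8 lie to the right for the LncGata6 mutant (3.05 and 2.98, both values above background) and to the left for the Ehf-/- array, where their values were under background and lengths cannot be ranked.

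The genes with the most alike pattern were found by the root mean square difference over the 4 arrays after each gene's own mean was subtracted, among genes above background on at least 1 array. For Cps1 the nearest gene was Otc, at 1.06 (log2), followed by the sulfotransferase Sult1d1 (1.11) and the kallikrein Klk1 (1.13). For Otc they were Ugt2b34 (0.51), 2210407C18Rik (0.53) and the immunoglobulin carrier Pigr (0.57), with Cps1 at rank 35. For Arg2 they were the actin regulator Eps8 (0.09), cytochrome c (Cycs, 0.15) and Sowahb (0.17). For Oat they were the nuclear receptor Nr5a2 (0.15), Tmem252 (0.19) and the epithelial sensor Nlrp6 (0.24).

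For Asl the nearest genes were Echdc2 (0.02), the glucokinase regulator Gckr (0.04), a liver gene, and the sulfurtransferase Tst (0.05). For Arg1 they were Atp11a (0.10), 1300017J02Rik (0.12) and the potassium channel Kcnj16 (0.14). For Gatm they were lipoprotein lipase (Lpl, 0.06), the protease Napsa (0.26) and Akr1c18 (0.46), with Arg1 at rank 11 (0.60). For Aldh18a1 they were Gm22362 (0.16), hexokinase Hk2 (0.17) and Slfn9 (0.18). These likenesses rest on 4 arrays, many of whose values for these genes lie under background, and are descriptions.

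The shares of all genes called each way depended on how the arrays were scaled, while under median centring, quantile normalization and cyclic loess the calls of the 8 measured genes were those given above, except Aldh18a1 in the LncGata6 mutant after loess. Of all calls between the wild-type ISC and GFP-negative arrays 35.1% were higher, and 50.6% after quantile normalization. For the LncGata6 mutant against the wild-type ISC array the share was 48.3%, and 62.8% after cyclic loess. For the Ehf-/- against the wild-type ISC array it was 32.9%, and 44.1% to 52.3% under the 3 scalings. For the LncGata6 mutant against the Ehf-/- array it was 64.0%, and 49.3% to 54.6%. Against the GFP-negative array it was 34.8% for the LncGata6 mutant and 23.4% for the Ehf-/- cells, and 49.9% and 48.6% after quantile normalization. Under the 3 scalings the median difference of all genes shifted by 0.19 to 0.21 for the Ehf-/- minus the wild-type ISC array and by -0.12 to -0.18 for the LncGata6 mutant minus the Ehf-/- array. Against the GFP-negative array it shifted by 0.10 to 0.16 for the wild-type ISC, 0.13 to 0.22 for the LncGata6 mutant and 0.29 to 0.36 for the Ehf-/- array.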

How the data were processed

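The series table holds the authors' deposited log2 values, 1 per array feature. The submitters' processing notes name Affymetrix Power Tools and RMA, a method that models and removes background and combines probes. In its usual form RMA also applies quantile normalization between arrays. It compresses differences at low signal. Tool versions and the genome build are not given in the sources used here. The log2 scale was taken from the values (-0.18 to 13.13), and the arrays' gene medians were unequal (3.24 to 3.55). Symbols came from the platform annotation, updated through RefSeq GRCm38.p6. Of 72688 features, 31266 had 1 symbol, 1484 several and 39938 none, which gave 30710 genes. Differences, calls and folds, as defined in the report, were computed in Python 3.11.15, with limma 3.58.1 for cyclic loess. The calling was run on simulated data with a chosen noise, in which only genes well above the lower limit were changed. It therefore did not check calls near background. The number of arrays limits the precision.

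Alternatives were median centring, quantile normalization, cyclic loess, the mean of features, other lower limits and a limit of 2. Named genes are the 9 members, up to 5 called genes each way per pathway list and comparison, and up to 3 markers per list. The plan allowed fewer called genes per list. Also named are pathway genes whose call changed with the scaling, Nags, the 3 most alike genes per member, and Ehf, Gata6, Gata6os and Lgr5. Members and lists were chosen with earlier results of these data known.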

Additional observations from a re-analysis of the deposited data

Results flagged for a closer look

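Arg2, the mitochondrial arginase, was called in opposite directions on the mutant arrays. It was higher on the LncGata6 mutant array by 1.14 (log2) and lower on the Ehf-/- array, with a difference of -2.35 that rests on an Ehf-/- value under background, both against the same wild-type ISC array. The difference between the mutant arrays was not tested, since each is 1 array.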

How the results depend on the processing

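Of 48 differences of the measured genes, the call was the same under median centring, quantile normalization, the mean of features and a lower limit at the control percentile in 48 of 48 cases each, and 0 reversed under any alternative. Cyclic loess ended the call of Aldh18a1 on the LncGata6 mutant array (-0.97), and without a lower limit Arg1 was called lower on the LncGata6 mutant than the Ehf-/- array, which made 2 genes lower there.
With a limit of 2, 8 calls ended, which left 0 higher and 1 lower gene on the LncGata6 mutant against the wild-type ISC array, and 0 higher on either mutant against the GFP-negative array. Counts over all genes, higher then lower, were then 470 and 961 (wild-type ISC against GFP-negative), 280 and 150 (LncGata6 mutant against wild-type ISC), 313 and 545 (Ehf-/- against wild-type ISC), 801 and 401 (LncGata6 mutant against Ehf-/-), 433 and 966, and 437 and 1401 (LncGata6 mutant and Ehf-/- against GFP-negative). Without a lower limit, 1772 were higher on the wild-type ISC than the GFP-negative array, and 2463, 3295 and 4580 were lower on the Ehf-/- against wild-type ISC, the LncGata6 mutant against GFP-negative and the Ehf-/- against GFP-negative arrays.
Scaling moved the split of all genes, as in the main values 796 higher and 1622 lower on the Ehf-/- against the wild-type ISC array, which median centring turned to 968 and 1228, quantile normalization to 1133 and 1032, and cyclic loess to 1100 and 1038. Against the GFP-negative array the knockout gave 1756 and 1858 after quantile normalization. The shift of the median of all genes reached 0.36 there. The cause of these changes was not tested.
With the floor at the 99th percentile of controls (7.71 to 8.20), 13 of 32 called folds of the measured genes could still be given. No fold could be given for Asl, Arg1 or Aldh18a1 in any comparison, nor for Arg2 on either mutant against the wild-type ISC array. The bounds on the Ehf-/- against the wild-type ISC array were at least 4.49-fold for Cps1, 1.41-fold for Otc and 3.20-fold for Oat, and Gatm was at least 2.26-fold lower on the wild-type ISC than the GFP-negative array.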
